A study of Homo sapiens with 33 samples.

Results

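The genes described here are 10 components of the NF-kB system: the 5 transcription factor subunits NFKB1, NFKB2, REL, RELA and RELB, the inhibitors NFKBIA, NFKBIE and TNFAIP3, and the nuclear co-regulators NFKBIZ and BCL3. They were chosen by name, as members of 1 pathway, and found in the count table by gene identifier. All 10 of them, among 85160 genes in the table, were present and had enough counts to be tested. RNA came from NB4 cells, an established human line of acute promyelocytic leukaemia, in which white cell precursors are held at an immature step. Cells were left untreated (0 h), or were cultured with 1 µM ATRA (all-trans retinoic acid, a form of vitamin A that drives such cells to mature) or with its solvent DMSO, for 4, 12, 24, 72 or 120 h. Medium with fresh ATRA or DMSO was added on day 3, after the 4, 12 and 24 h cells had been collected. Each of the 11 groups held 3 biological replicates, numbered 2, 4 and 5, and values below are given in that order. All libraries come from this 1 cell line.

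NF-kB proteins bind DNA as dimers. In the canonical route, dimers of RELA or REL with the NFKB1 product p50 are held in the cytoplasm by inhibitors such as IkappaB-alpha (NFKBIA) and are released when the IKK kinases mark the inhibitor for destruction. In the noncanonical route, the NFKB2 precursor is cut to p52, which pairs with RELB. Several of the pathway's own subunits and inhibitors are among the genes that NF-kB switches on, so their RNA levels form part of feedback loops. In myeloid cells the pathway is known for its part in inflammatory gene expression.

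The promoter windows of the family show where letters of the NF-kB recognition sequence lie. They are printed because several of these genes are textbook targets of the factor they encode or restrain. RefSeq windows (GRCh38.p14) from 250 bases before to 50 bases after a transcript start were at hand for 8 of the 10 genes, in 13 windows. None is listed for RELB and NFKBIE. The degenerate decamer known as the kappaB consensus was searched on both strands. It was found in 9 of the 13 windows, against 5.91% of all 35116 windows of this length. By gene it was found in 7 of the 8, for which no share over all genes was counted. The windows of these genes held from 51.3% to 80% G or C, where the median of all windows was 58.7%, and the part of this was not tested. The exact form GGGAATTTCC was in 4 of the 13 windows (0.145% of all windows), those of NFKB1, REL, NFKBIA and NFKBIZ. The exact form GGGACTTTCC was in 2 (0.191% of all windows), one of NFKB2 and that of TNFAIP3. These exact forms were read from windows of NFKB1 and NFKB2 themselves, so 1 match of each was given by the choice, and the shares are a description. Both exact forms also match the consensus, so these counts overlap. Each stretch below is read 5′ to 3′ on the strand of the gene and ends at the last base before the start. Capitals mark matches to the consensus, which overlap each other in REL.
NFKB1: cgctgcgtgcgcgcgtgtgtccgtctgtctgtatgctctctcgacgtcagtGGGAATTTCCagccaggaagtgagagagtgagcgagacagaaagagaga
REL: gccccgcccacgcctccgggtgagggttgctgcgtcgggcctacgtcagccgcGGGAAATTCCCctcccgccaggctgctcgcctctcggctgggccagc
NFKB2: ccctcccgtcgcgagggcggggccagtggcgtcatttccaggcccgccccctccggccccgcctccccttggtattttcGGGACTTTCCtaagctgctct
NFKBIA: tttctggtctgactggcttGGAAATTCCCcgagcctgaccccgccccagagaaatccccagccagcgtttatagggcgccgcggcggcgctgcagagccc
TNFAIP3: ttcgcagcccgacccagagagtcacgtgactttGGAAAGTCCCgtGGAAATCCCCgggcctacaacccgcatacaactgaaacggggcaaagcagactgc
NFKBIZ: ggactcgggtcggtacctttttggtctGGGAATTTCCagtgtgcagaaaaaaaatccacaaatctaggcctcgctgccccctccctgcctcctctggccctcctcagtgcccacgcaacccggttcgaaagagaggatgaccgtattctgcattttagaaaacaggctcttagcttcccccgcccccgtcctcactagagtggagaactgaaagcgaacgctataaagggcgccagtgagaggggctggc

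These stretches lie at chr4:102501259-102501358 on the plus strand (NFKB1), chr2:60881474-60881573 on the plus strand (REL), chr10:102395605-102395704 on the plus strand (NFKB2), chr14:35404750-35404849 on the minus strand (NFKBIA), chr6:137867159-137867258 on the plus strand (TNFAIP3) and chr3:101827740-101827989 on the plus strand (NFKBIZ). The NFKB1 match spans bases -49 to -40 from the start. In REL the exact form lies on the other strand at -46 to -37, and in NFKBIA on the other strand at -81 to -72. TNFAIP3 holds 2 matches on the other strand, at -67 to -58 and -55 to -46. In NFKBIZ the match lies farther out, at -223 to -214. BCL3 has a consensus match at bases 3 to 12 after its start. Neither RELA window holds a consensus match, which says only that these letters are not in those windows. A match is a run of letters and was not tested as a binding site.

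Library totals ran from 18341456 to 33490654 counts, with a median of 25927472, where a fragment counts once in each gene it overlaps. Libraries of 1 group correlated at 0.9855 or above across genes. Of 6 promyelocyte markers, MPO, PRTN3, AZU1, CD33 and CTSG were detected in all 33 libraries, with lowest levels of 328, 76, 6.63, 39.6 and 0.117 CPM (counts scaled to the library's total; levels below are in this unit unless given per kb). The sixth, ELANE, was nearly absent, with at most 0.607 CPM and 0 in 3 libraries. Markers of other cell types moved with ATRA. The summed level of 10 monocyte and macrophage markers ran from 73.6 to 79.1 CPM in ATRA at 12 h against 31 to 32.3 CPM in DMSO, and from 68.4 to 78.6 against 28 to 31.9 CPM at 24 h. It ran from 340 to 394 CPM in ATRA at 72 h against 33.1 to 38.5 CPM in DMSO, and from 765 to 881 against 30.9 to 33.3 CPM at 120 h. All 9 of these markers that were tested were higher at 72 and 120 h, while MRC1 was at 0 in 29 libraries. The 8 lymphocyte markers summed to 337 to 397 CPM in ATRA at 120 h against 45.2 to 60.8 CPM in DMSO, mostly through NKG7, with MS4A1 at 0 in 29 and CD2 at 0 in 28 libraries. The promyelocyte sum was 451 to 666 CPM against 9320 to 11400 CPM at 120 h. The erythroid markers HBA1 and ALAS2 were at 0 throughout. The part of these markers in the results below was not tested, and in bulk RNA fewer cells of a type and less RNA per cell cannot be told apart.

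With ATRA the 10 genes moved in both directions at 4, 12 and 24 h, and nearly all were higher at 72 and 120 h. At 4 h, 5 genes were higher than in DMSO and 2 lower, where 24.7% of the 22971 genes tested passed the threshold (adjusted p under 0.05, edgeR). At 12 h, 2 were higher and 3 lower (38.7% of all genes), and at 24 h again 2 were higher and 3 lower (33.2% of all genes). At 72 h, 9 were higher and none lower, where 64.7% of all genes passed, 32.1% higher and 32.6% lower. At 120 h all 10 were higher, where 70.6% of all genes passed, 34.9% higher and 35.6% lower. The median log2 change of the 10 genes was 0.17, 0.02 and -0.05 at 4, 12 and 24 h, and 1.34 and 1.43 at 72 and 120 h, while the median of all tested genes stayed between -0.03 and 0.03. The 3 ATRA and 3 DMSO libraries did not overlap in 8, 5, 7, 8 and 10 of the 10 genes from 4 to 120 h, against 34.9%, 47.3%, 47%, 68.8% and 71.7% of all genes.

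**Figure D1:**
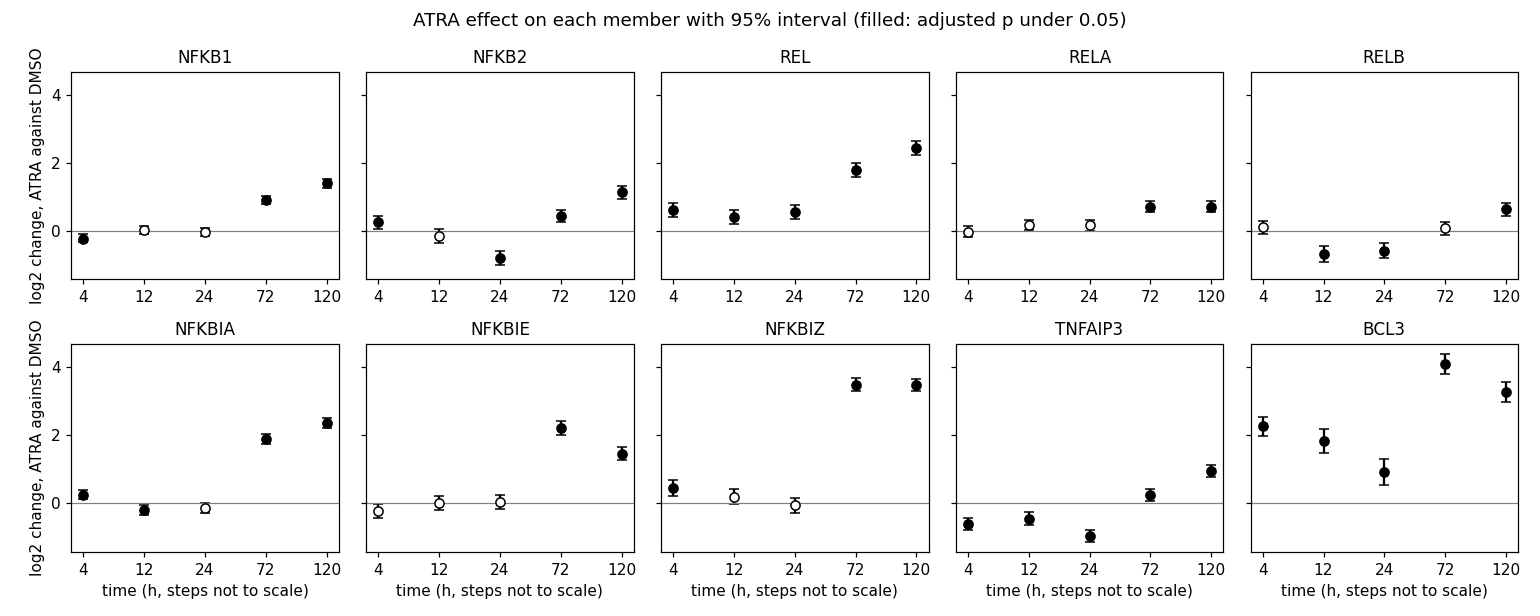
Log2 change in ATRA against DMSO (y axis) at 4, 12, 24, 72 and 120 h (x axis, steps not to scale) for each of the 10 genes, with 95% intervals from the edgeR fit of all 33 libraries; filled points have an adjusted p under 0.05. NFKBIZ and BCL3 reach the largest changes, 3.48 and 4.10 at 72 h, while TNFAIP3 is below 0 until 24 h and above 0 from 72 h.

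Of the canonical subunits, REL was higher with ATRA at every time, whereas RELA and NFKB1 passed the threshold upward at 72 and 120 h. REL (ENSG00000162924, chr2:60881210-60940296, plus strand) encodes c-Rel, a transactivating subunit of blood cells. At 4 h its level was 35.7, 34.5 and 28.2 CPM in ATRA and 24.8, 22 and 18.4 CPM in DMSO, which is 1.52-fold higher (log2 change 0.60, SE 0.10, adjusted p = 1.4e-05), without overlap. At 12 and 24 h the log2 changes were 0.41 (SE 0.10) and 0.54 (SE 0.10), both past the threshold and without overlap. By 72 h REL stood at 88.3, 87.9 and 89.5 CPM against 27.9, 25.7 and 24.1 CPM, and at 120 h at 123, 133 and 133 CPM against 22.8, 24.0 and 25.7 CPM, 5.37-fold higher (log2 change 2.42, SE 0.10, adjusted p = 3.83e-23). Untreated cells held 24.7, 25 and 20.7 CPM, and DMSO libraries ran from 15.9 to 27.9 CPM over the 5 times. When the 11 groups are ordered by mean, ATRA at 120 h and ATRA at 72 h stand above the rest without overlap while the other 8 neighbouring pairs overlap. The REL gene model shares 25.5% of its exon length with a transcript at its 3′ end on the same strand (ENSG00000267520), in which shared fragments were counted as well, and that transcript moved by 2.32 on the log2 scale at 120 h.

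RELA encodes p65, the main transactivating subunit. RELA (ENSG00000173039, chr11:65577767-65663857, minus strand) varied least of the 10 genes, 1.74-fold between its highest and lowest group mean. Its level was 48.9, 44.8 and 51.1 CPM in untreated cells. At 4, 12 and 24 h the log2 changes with ATRA were -0.03, 0.17 and 0.15 and did not pass the threshold (adjusted p from 0.088 to 0.856). Without ATRA replicate 2 the 12 h change was 0.22 and passed (adjusted p = 0.0348), as did the 24 h change when its groups were compared alone (0.16, adjusted p = 0.0423). At 72 h it stood at 77.9, 92.1 and 81.7 CPM in ATRA against 50.7, 52.1 and 51.2 CPM in DMSO, 1.63-fold higher (log2 change 0.71, SE 0.08, adjusted p = 1.96e-10). At 120 h the levels were 80.3, 80.9 and 73.9 CPM against 47.3, 51.0 and 46.0 CPM, again 1.63-fold higher. ATRA and DMSO libraries did not overlap at 24, 72 and 120 h. The deposited RELA model lies opposite exons of other genes over 95.2% of its exon length, mostly SIPA1 (87.6%), and counting was by strand. SIPA1 was at 257 CPM in ATRA and 84.2 CPM in DMSO at 12 h, when RELA was at 56.7 and 50.6 CPM. SIPA1 was also higher when RELA passed, at 306 against 71.2 CPM at 72 h and 284 against 73.7 CPM at 120 h. EHBP1L1, opposite 7.55% of the RELA exon length, had log2 changes of 0.93 at 72 h and -0.08 at 120 h. Whether fragments of the other strand add to the RELA counts was not tested.

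NFKB1 (ENSG00000109320, chr4:102500955-102617754, plus strand) encodes p105, the precursor of p50. At 4 h ATRA cultures were slightly lower, at 83.6, 82.6 and 86.2 CPM against 96.8, 106 and 94.0 CPM in DMSO (log2 change -0.24, SE 0.06, adjusted p = 0.00238). At 12 and 24 h the levels overlapped, with log2 changes of 0.03 and -0.03. From 72 h on NFKB1 was higher in ATRA: 135, 141 and 153 CPM against 75.3, 82.9 and 71.7 CPM at 72 h, a log2 change of 0.90 (SE 0.06). The difference was larger at 120 h, with 223, 225 and 221 CPM against 87.1, 85.2 and 82.6 CPM, 2.63-fold (log2 change 1.39, SE 0.06, adjusted p = 6.98e-23). The ATRA groups of 120 and 72 h lay above all others without overlap.

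The noncanonical subunits NFKB2 and RELB had similar courses, and both rose between 24 and 72 h in DMSO as well as in ATRA. NFKB2 (ENSG00000077150, chr10:102394110-102404112, plus strand) encodes p100, the precursor of p52. It stood at 20.1, 23.4 and 25.2 CPM in untreated cells and at 45.9, 48.4 and 50 CPM after 4 h of ATRA against 34.7, 42.2 and 44.7 CPM in DMSO (log2 change 0.25, SE 0.09, adjusted p = 0.0457). That call is at the threshold: it was lost without ATRA replicate 4 or 5 or without DMSO replicate 2, which gave log2 changes from 0.15 to 0.25. At 24 h NFKB2 was lower in ATRA, at 13.5, 16.7 and 12.8 CPM against 25.2, 24.6 and 25.1 CPM (1.74-fold lower, log2 change -0.80, SE 0.10, adjusted p = 2.58e-08). At 72 h it was at 103, 118 and 114 CPM in ATRA and 82.1, 89.3 and 78.9 CPM in DMSO, a log2 change of 0.42 (SE 0.09). At 120 h the ATRA libraries held 130, 123 and 116 CPM and the DMSO libraries 54.6, 59.6 and 55.0 CPM, 2.18-fold higher (log2 change 1.12, SE 0.09, adjusted p = 2.77e-14). ATRA and DMSO libraries overlapped only at 12 h.

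RELB (ENSG00000104856, chr19:45001430-45038778, plus strand), the partner of p52, was lower with ATRA at 12 and 24 h and higher at 120 h. At 12 h it stood at 4.48, 6.60 and 6.18 CPM against 8.41, 9.83 and 10.0 CPM in DMSO (1.61-fold lower, log2 change -0.69, SE 0.12, adjusted p = 8.67e-06). The 24 h levels were 9.57, 8.45 and 8.81 CPM against 12.2, 14.1 and 14.1 CPM (log2 change -0.60, SE 0.11). Both differences were without overlap. At 4 and 72 h RELB did not pass the threshold, with log2 changes of 0.09 (95% interval -0.10 to 0.29) and 0.07 (-0.13 to 0.26) and overlapping libraries. By 120 h ATRA cultures were at 43.7, 45.8 and 38.3 CPM and DMSO cultures at 29.1, 27.6 and 26.1 CPM, 1.54-fold higher (log2 change 0.63, SE 0.10, adjusted p = 3.21e-07).

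**Figure D2:**
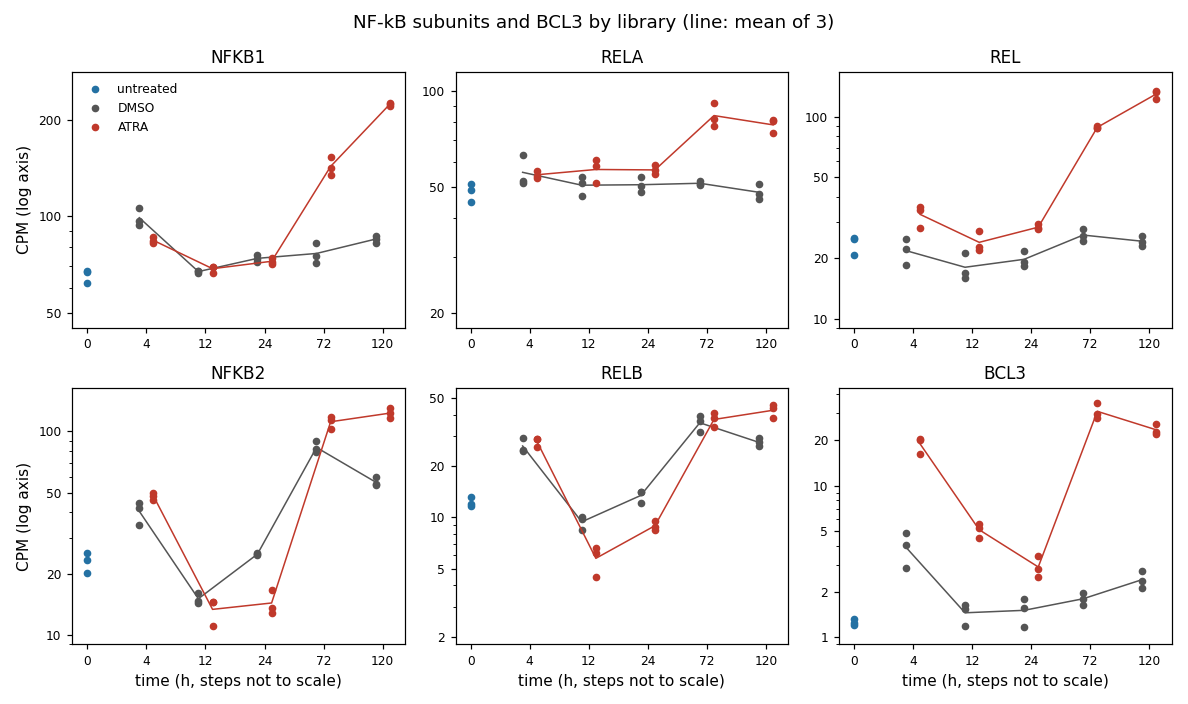
CPM on log axes by time (x axis, steps not to scale) for the 5 subunits and BCL3; points are single libraries, lines join the means of 3, blue is untreated, grey DMSO and red ATRA. REL, RELA and NFKB1 lie above DMSO at 72 and 120 h, REL also at the earlier times, while NFKB2 and RELB rise in DMSO as well, to 83.4 and 36 CPM at 72 h.

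NFKBIA and NFKBIE, 2 inhibitors of the IkappaB family, which hold NF-kB dimers in the cytoplasm, were higher with ATRA at 72 and 120 h. NFKBIA (ENSG00000100906, chr14:35394085-35405097, minus strand) encodes IkappaB-alpha, the first inhibitor to be degraded and remade in a canonical response. At 4 h it was at 90.7, 96.0 and 90.1 CPM in ATRA and 74.9, 75.1 and 83.5 CPM in DMSO (log2 change 0.25, SE 0.07, adjusted p = 0.00648). At 12 h the order was the opposite, with 37.3, 40.2 and 38.6 CPM against 41.9, 45.8 and 47.3 CPM (log2 change -0.22, SE 0.07, adjusted p = 0.0153). The 12 h call was lost without ATRA replicate 2 (adjusted p = 0.0568) or DMSO replicate 5 (adjusted p = 0.0538). At 24 h the change was -0.14 and did not pass (adjusted p = 0.141), although the libraries did not overlap.

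From 72 h NFKBIA was severalfold higher in ATRA. Its level was 314, 323 and 353 CPM against 87.9, 98.0 and 79.9 CPM at 72 h, 3.72-fold higher (log2 change 1.90, SE 0.07, adjusted p = 9.4e-25). At 120 h it was 432, 438 and 387 CPM against 81.9, 84.6 and 77.0 CPM, 5.16-fold higher (log2 change 2.37, SE 0.07, adjusted p = 4.76e-28). The highest group mean, 418.9 CPM, was 10.8-fold the lowest, that of ATRA at 12 h.

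NFKBIE (ENSG00000146232, chr6:44257660-44265788, minus strand), which encodes IkappaB-epsilon, passed the threshold at 72 and 120 h. At 4 h it was at 42.6, 48.1 and 43.7 CPM in ATRA and 50.6, 50.6 and 56.9 CPM in DMSO (log2 change -0.23, SE 0.10, adjusted p = 0.0732), without overlap. This 4 h difference passed without the low-count filter (adjusted p = 0.0287), without mitochondrial and small RNA genes (0.043) and with a replicate block (0.0491). Its 12 and 24 h libraries overlapped, with log2 changes of 0.00 and 0.04. At 72 h NFKBIE stood at 116, 129 and 126 CPM in ATRA against 27.3, 26.6 and 25.8 CPM in DMSO, 4.66-fold higher (log2 change 2.22, SE 0.10, adjusted p = 8.64e-22). At 120 h the ATRA level overlapped that of 72 h, at 122, 121 and 94.7 CPM, and DMSO was at 38.7, 44.9 and 39.2 CPM (log2 change 1.46, SE 0.10). DMSO at 72 h had the lowest mean of its 11 groups, with libraries that overlapped those of untreated cells.

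TNFAIP3 (ENSG00000118503, chr6:137864434-137884327, plus strand) encodes A20, a ubiquitin-editing enzyme that shuts off signalling upstream of IKK. It was lower with ATRA through 24 h and higher at 120 h. At 4 h it was at 30.8, 32.9 and 31.7 CPM in ATRA against 47.7, 47.8 and 50.5 CPM in DMSO (1.53-fold lower, log2 change -0.61, SE 0.09, adjusted p = 1.36e-06). At 24 h it was at 23.2, 22.6 and 23.8 CPM against 45.9, 46.5 and 44.4 CPM (1.96-fold lower, log2 change -0.97, SE 0.09, adjusted p = 3.83e-11). The libraries did not overlap at 4, 12 or 24 h.

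At 72 h TNFAIP3 had risen in both cultures and the groups overlapped, at 134, 180 and 156 CPM in ATRA and 119, 158 and 121 CPM in DMSO. The log2 change of 0.24 (SE 0.09, adjusted p = 0.0131) was lost without ATRA replicate 4 or without DMSO replicate 2 or 5 (log2 changes 0.10, 0.15 and 0.18). At 120 h the levels were 295, 305 and 274 CPM against 144, 160 and 151 CPM, 1.92-fold higher (log2 change 0.94, SE 0.09, adjusted p = 9.14e-13). TNFAIP3 thus went from its lowest group mean, 20.4 CPM in ATRA at 12 h, to its highest, 291.5 CPM in ATRA at 120 h, a 14.3-fold range.

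**Figure D3:**
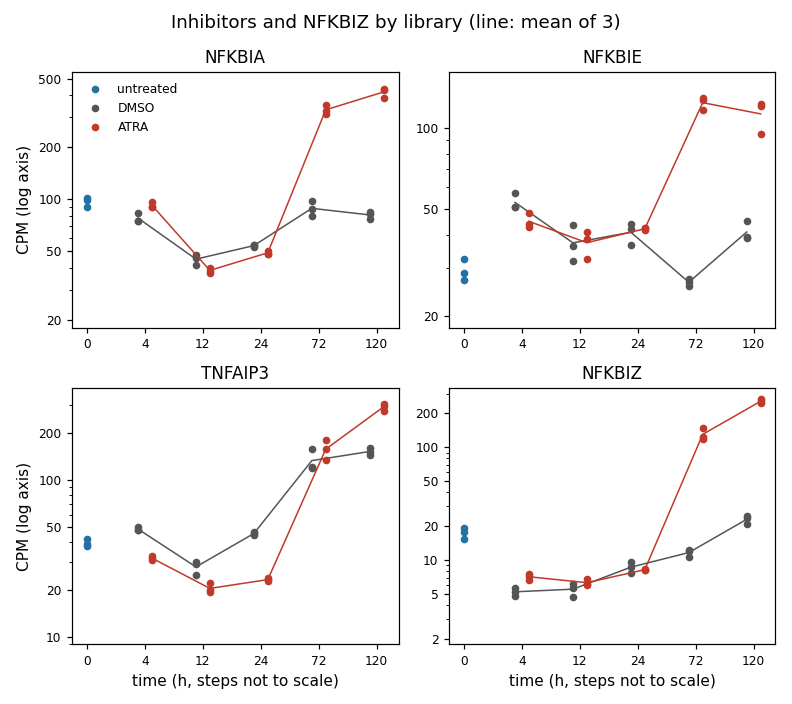
CPM on log axes by time (x axis, steps not to scale) for NFKBIA, NFKBIE, TNFAIP3 and NFKBIZ; points are single libraries, lines join the means of 3, blue is untreated, grey DMSO and red ATRA. NFKBIZ goes from 8.25 CPM in ATRA at 24 h to 256 CPM at 120 h, and TNFAIP3 lies below DMSO up to 24 h.

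The nuclear co-regulators BCL3 and NFKBIZ, atypical IkappaB proteins that bind p50 or p52 dimers on DNA, had the largest fold changes of the 10 genes at 72 and 120 h. BCL3 (ENSG00000069399, chr19:44736932-44762148, plus strand) was higher with ATRA at all 5 times, with a peak at 4 h and another at 72 h. It was at 1.20, 1.24 and 1.33 CPM in untreated cells. At 4 h it stood at 19.9, 20.4 and 16.1 CPM in ATRA against 4.07, 2.85 and 4.85 CPM in DMSO, 4.80-fold higher (log2 change 2.26, SE 0.14, adjusted p = 8.53e-17). It then fell to 4.53, 5.22 and 5.6 CPM at 12 h and 2.81, 2.5 and 3.42 CPM at 24 h in ATRA, still 3.53-fold and 1.89-fold above DMSO.

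The second peak of BCL3 came at 72 h, with 28, 35 and 29.6 CPM in ATRA against 1.64, 1.78 and 1.97 CPM in DMSO, 17.1-fold higher (log2 change 4.10, SE 0.15, adjusted p = 1.27e-24). At 120 h it was at 22.6, 25.4 and 21.9 CPM against 2.11, 2.75 and 2.35 CPM (log2 change 3.28, SE 0.15). ATRA and DMSO libraries overlapped at no time. BCL3 had the fewest counts of the family, from 22 to 897 in a library, and therefore the widest errors.

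NFKBIZ (ENSG00000144802, chr3:101827990-101862732, plus strand) encodes IkappaB-zeta, which is needed for part of the secondary response genes of macrophages. At 4 h it was at 6.66, 7.56 and 7.19 CPM in ATRA against 4.84, 5.71 and 5.21 CPM in DMSO (log2 change 0.44, SE 0.12, adjusted p = 0.00405). At 12 and 24 h its libraries overlapped and the changes of 0.19 and -0.06 did not pass. At 72 h it was at 118, 124 and 149 CPM against 12.3, 12.1 and 10.7 CPM, 11.2-fold higher (log2 change 3.48, SE 0.10, adjusted p = 4.66e-29). The 120 h levels were 246, 257 and 267 CPM in ATRA and 20.9, 23.5 and 24.8 CPM in DMSO, 11.1-fold higher (log2 change 3.47, SE 0.09). NFKBIZ had the widest range of the 10 genes, 48.8-fold between the means of ATRA at 120 h and DMSO at 4 h. Of all tested genes, 94.3% had a smaller absolute change than NFKBIZ at 72 h, and 95.8% a smaller one than BCL3.

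The time course within ATRA showed a fall after 4 h and a rise after 24 h. From 4 to 12 h, 8 of the 10 genes fell and none rose, where 35.4% of all genes passed, 18.7% higher and 16.8% lower. RELB dropped most, 4.80-fold, followed by BCL3 (3.65-fold), NFKB2 (3.57-fold) and NFKBIA (2.38-fold), while RELA and NFKBIZ did not pass. DMSO means fell over the same interval, which was not tested as a contrast. RELB went from 26.3 to 9.42 CPM, BCL3 from 3.92 to 1.45, NFKB2 from 40.5 to 15.1 and NFKBIA from 77.8 to 45 CPM. Only NFKBIZ had a higher DMSO mean at 12 h (5.25 to 5.54 CPM). From 12 to 24 h 3 rose (RELB, NFKBIZ and NFKBIA) and 1 fell (BCL3), against 19.7% of all genes, but the 24 h libraries were sequenced in other lanes than the earlier ones, and that part cannot be told apart. From 24 to 72 h all 10 rose, where 62% of all genes passed, 31.2% higher and 30.7% lower, from 1.48-fold for RELA to 10.5-fold for BCL3 and 15.8-fold for NFKBIZ. From 72 to 120 h 5 more rises passed (NFKBIZ, TNFAIP3, NFKB1, REL and NFKBIA, from 1.27-fold to 1.96-fold) and BCL3 fell 1.32-fold, against 50.4% of all genes. The BCL3 fall was lost without ATRA replicate 4 of 72 h (adjusted p = 0.0502), the NFKBIZ rise from 12 to 24 h without ATRA replicate 2 or 4 of 12 h (adjusted p = 0.0511 and 0.0722), and the NFKBIE fall from 4 to 12 h without ATRA replicate 4 of 4 h or replicate 2 of 12 h (adjusted p = 0.121 and 0.199). The change of the ATRA effect itself between 24 and 72 h was positive and past the threshold in all 10 genes, from 0.56 (RELA) to 3.54 (NFKBIZ) on the log2 scale, where 45.9% of all genes passed, 21.5% upward and 24.5% downward. From 4 to 12 h this effect changed in 4 of the 10 genes (14% of all genes), from 12 to 24 h in 3, all downward (6.9% of all genes, 2.5% upward and 4.4% downward), and from 72 to 120 h in 8 (39.3% of all genes).

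DMSO cultures also differed from untreated cells, in 4 to 9 of the 10 genes depending on the time. At 4 h in DMSO 7 genes were higher than in untreated cells and 2 lower, where 31.4% of all genes passed. BCL3 was 3.09-fold, RELB 2.13-fold, NFKBIE 1.79-fold and NFKB2 1.76-fold higher, and NFKBIZ was 3.34-fold lower, at 4.84, 5.71 and 5.21 CPM against 15.4, 17.9 and 19.1 CPM. At 12 h 6 genes were lower and only NFKBIE higher (22.7% of all genes). NFKBIA was 2.16-fold lower, at 41.9, 45.8 and 47.3 CPM against 90.7, 98.5 and 102 CPM. At 24 h 2 were higher and 2 lower (19.1% of all genes). Single libraries decided some of these calls. NFKB1 at 24 h (log2 change 0.17) was lost without any 1 of the 6 libraries, with changes from 0.14 to 0.19, and RELA at 4 h (0.20) without untreated replicate 2 or 4 or DMSO replicate 5 (from 0.09 to 0.21). TNFAIP3 at 4 h (0.29) was lost without the same libraries (from 0.26 to 0.27), and at 12 h NFKBIE without untreated or DMSO replicate 4 (0.27 and 0.21), RELB without untreated replicate 5 or DMSO replicate 2 (-0.32 and -0.31), and REL without DMSO replicate 4 (-0.30). These comparisons share the 3 untreated libraries.

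At 72 h in DMSO, NFKB2 was 3.62-fold, TNFAIP3 3.34-fold and RELB 2.92-fold above untreated cells; 4 genes were higher and 1 (NFKBIZ) lower, where 51.6% of all genes passed. At 120 h 7 were higher and 1 (NFKBIA) lower (21.9% of all genes), with TNFAIP3 3.81-fold higher at 144, 160 and 151 CPM against 37.8, 39.2 and 41.9 CPM. The untreated libraries were all in lane 4, and the libraries of 24 h and later in lanes 2 and 3, so lane and time in DMSO cannot be told apart at these times. ATRA and DMSO libraries of 1 time and replicate were in 1 lane, and within lane 3 (replicates 4 and 5) each gene called in ATRA against DMSO at 24, 72 and 120 h kept its call.

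**Figure D4:**
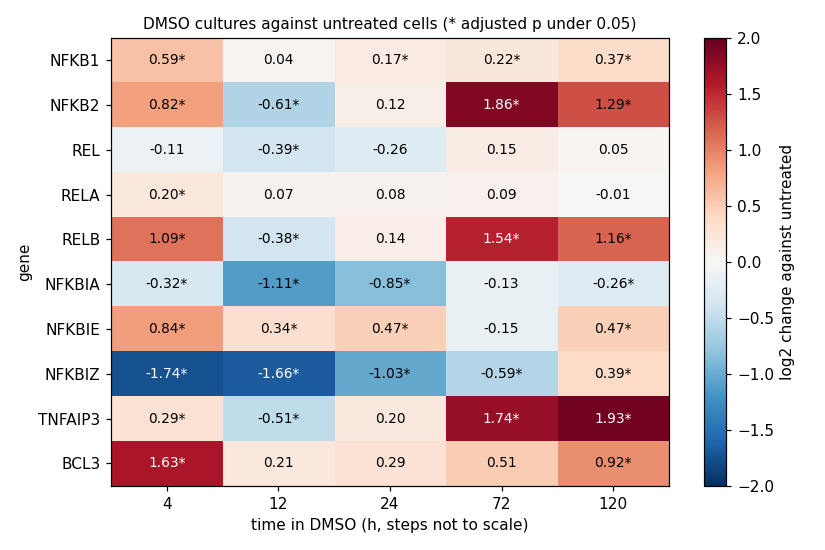
Log2 change of each gene (rows) in DMSO cultures against untreated cells at 4, 12, 24, 72 and 120 h (columns); red is higher, blue lower, and a star marks an adjusted p under 0.05 in edgeR. NFKBIZ is lowest at 4 h (-1.74), and NFKB2, RELB and TNFAIP3 are highest at 72 and 120 h.

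The solvent cultures of 72 h stood apart from their neighbours in time. From 24 to 72 h in DMSO, NFKB2 rose 3.34-fold, TNFAIP3 2.91-fold and RELB 2.65-fold, and 6 of the 10 genes rose while NFKBIE fell 1.54-fold, where 51.7% of all genes passed. From 72 to 120 h NFKB2 and RELB fell and NFKBIE, NFKBIZ and NFKB1 rose (40.8% of all genes). The NFKB1 change (0.15 on the log2 scale) was lost without DMSO replicate 2 or 5 of either time (from 0.07 to 0.16). Fresh medium was added on day 3, and whether the 72 h cells were collected before or after it is not given in the sources used here. Set against the mean of DMSO at 24 and 120 h instead of DMSO at 72 h, ATRA at 72 h gave log2 changes of 1.57 for NFKB2, 0.92 for TNFAIP3 and 0.96 for RELB, in place of 0.42, 0.24 and 0.07, and all 10 genes were then higher. NFKBIE was then 1.60 in place of 2.22.

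Ratios between members within a library do not depend on how libraries are scaled. They were taken as log2 ratios of counts per kb of the deposited gene models, and 3 against 3 libraries cannot give an exact two-sided permutation p below 0.1. The ratio of NFKBIA to RELA, an inhibitor to the subunit it holds, was 0.41 ± 0.06 in ATRA and 0.70 ± 0.06 in DMSO at 24 h (SD, n = 3; exact permutation p = 0.1). At 120 h it was 3.03 ± 0.03 against 1.37 ± 0.03, a difference of 1.66 without overlap (exact permutation p = 0.1). REL approached RELA with ATRA: the ratio of REL to RELA was -0.03 ± 0.12 in ATRA and -1.75 ± 0.14 in DMSO at 120 h.

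Ratios of noncanonical to canonical subunits differed in direction with time. The ratio of RELB to RELA was lower in ATRA at 12, 24 and 72 h, by 0.89, 0.74 and 0.64 on the log2 scale, each without overlap (exact permutation p = 0.1). At 4 and 120 h its groups overlapped, with differences of 0.12 and -0.08. The ratio of NFKB2 to NFKB1 was higher by 0.49 at 4 h and differed by -0.78, -0.48 and -0.27 at 24, 72 and 120 h, again without overlap, and at 12 h the groups overlapped (-0.21).

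**Figure D5:**
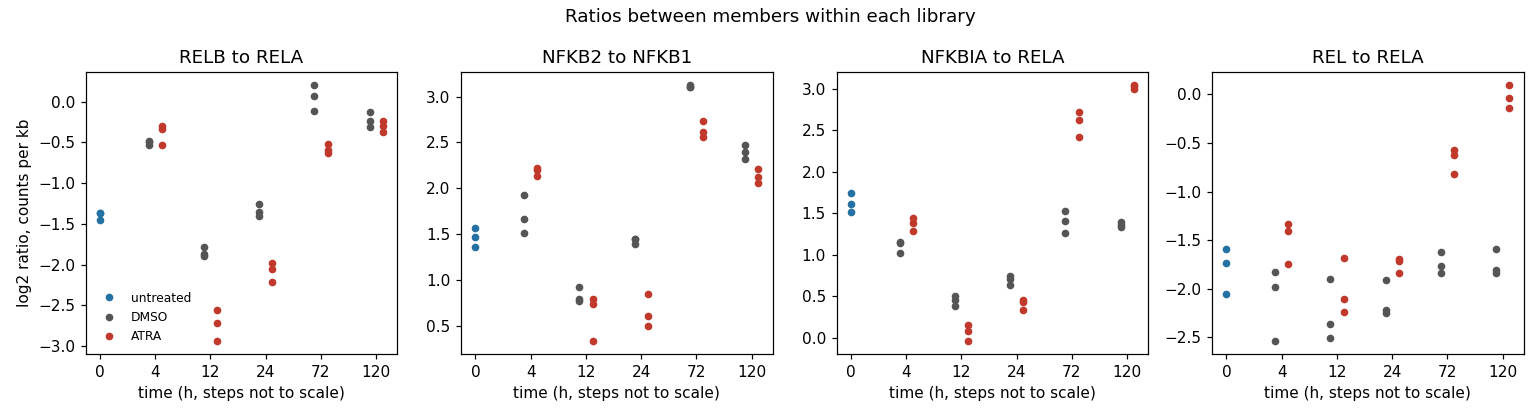
Log2 ratio of counts per kb between 2 genes (y axis) in each library by time (x axis, steps not to scale); blue is untreated, grey DMSO and red ATRA. NFKBIA to RELA reaches 3.03 in ATRA at 120 h against 1.37 in DMSO, and RELB to RELA is lower in ATRA at 12, 24 and 72 h.

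Levels between genes can be compared only per length, and here the gene model decides much of the order. The deposited models merge annotations and are longer than those of GENCODE 29: the NFKB1 model counts 69.1 kb of exon against 6.26 kb, and that of BCL3 20.4 against 3.24 kb. In untreated cells NFKBIA was the highest of the 10 genes by either length, at 11.2 CPM per kb of the deposited model and 40.9 CPM per kb of the GENCODE model, followed by NFKBIE (8.33 and 11.4). BCL3 was the lowest by both (0.0616 and 0.388). NFKB1 was the ninth by the deposited length and the third by the GENCODE length. With ATRA at 120 h NFKBIA was again the highest, at 48.3 ± 3.22 and 177 ± 11.8 CPM per kb (SD, n = 3).

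Other genes of the pathway, from lists of textbook components, were counted in the same comparisons. Of 11 IKK, TAK1 and noncanonical kinases, 1 was higher and 0 lower at 4 h (24.7% of all genes passed), and 3 were higher and 3 lower at 24 h (33.2%). At 72 h 8 were higher and 1 lower (64.7% of all genes, 32.1% higher), with a median log2 change of 0.60. IKBKE, an IKK-related kinase, was at 116 ± 11.3 CPM in ATRA against 32.1 ± 2.93 CPM in DMSO (SD, n = 3; log2 change 1.86, SE 0.08), TBK1 had a log2 change of 1.03 and CHUK (IKK-alpha) one of 0.63, while TAB1, a TAK1 partner, was lower (-0.72). Among 16 other inhibitors and deubiquitinases 5 were higher and 0 lower at 4 h, 2 higher and 7 lower at 24 h, and 11 higher and 1 lower at 120 h, where 24.7%, 33.2% and 70.6% of all genes passed. At 120 h N4BP1 (log2 change 2.93), ZC3H12A (2.91), an RNase that degrades cytokine RNA, TANK (2.43) and TNIP1 (2.04), a partner of A20, had the smallest p.

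Of the adaptors and ubiquitin ligases, 19 of 20 were tested, and 8 were higher and 2 lower at 24 h (33.2% of all genes) and 13 higher and 4 lower at 120 h (70.6% of all genes, 34.9% higher), with a median log2 change of 0.58. MYD88, the adaptor of most Toll-like receptors, was at 141 ± 8.56 CPM in ATRA and 7.58 ± 0.345 CPM in DMSO (log2 change 4.21, SE 0.10), and BIRC3, TRAF1 and RIPK1 had changes of 4.35, 3.17 and 1.86. Of 14 activating receptors tested 12 were higher and 0 lower at 120 h, and 5 higher and 5 lower at 24 h, where 70.6% (34.9% higher) and 33.2% of all genes passed. TNFRSF1B, the second TNF receptor, was at 649 ± 43.1 CPM against 29.3 ± 1.93 CPM (log2 change 4.47, SE 0.09), and TLR4, TLR1 and TLR6 had changes of 4.38, 4.26 and 2.82. Several of these receptors are also known from monocytes, whose markers rose at the same time, and that part was not tested.

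Of 7 activating ligands tested, 3 were lower and 0 higher at 4 h, 4 were lower and 1 higher at 24 h, and 6 were higher and 1 lower at 120 h, where 24.7%, 33.2% and 70.6% of all genes passed. TNF, the textbook inducer of canonical signalling, was at 10.4 ± 0.662 CPM in ATRA and 49.8 ± 4.57 CPM in DMSO at 24 h (SD, n = 3; log2 change -2.27, SE 0.12, adjusted p = 8.26e-19). At the same time TNFSF14 (-2.29) and the lymphotoxin genes LTB (-2.04) and LTA (-3.15) were also lower. At 72 h TNF was higher, at 84.3 ± 15.5 CPM against 19.4 ± 2.27 CPM (log2 change 2.12, SE 0.11).

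Of the textbook NF-kB target genes listed outside the family, 25 had enough counts to be tested, and the rest were not tested. At 4 h 13 of the 25 were higher and 2 lower (24.7% of all genes passed). At 24 h 9 were higher and 5 lower (33.2%), and at 72 h 21 were higher and 2 lower (64.7%, 32.1% higher). The median log2 changes were 0.79, 0.28 and 3.32. The low-count filter asks for enough counts in 3 libraries. A gene near 0 in DMSO can thus be tested through its ATRA libraries alone, here and among the receptors and ligands. At 72 h BCL2A1, an anti-apoptotic BCL2 relative, had a log2 change of 7.72, CCL2, a monocyte attractant, one of 7.5, EBI3 one of 5.13 and IRF1 one of 3.21.

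Over the 11 group means of log2 CPM, the gene most like NFKB2 among 12069 was RELB (Pearson r = 0.9676). RFPL3S was nearly as alike (0.9667), followed by VEGFA (0.9538). The gene most like RELB was NFKB2 (0.9676), followed by TBC1D20 (0.9546) and RFPL3S (0.946). These values are a description of groups that share cell line and time, with no test. For REL the 3 most alike were SNX13 (r = 0.996), IFIH1 (0.995) and BIRC2 (0.991). For NFKBIZ they were TNFSF10 (0.989), NCOA7 (0.987) and NR1H2 (0.979), of which NR1H2 was also among the 3 for NFKBIA (0.971), after SERTAD1 (0.9754) and COQ10B (0.973). For NFKBIE they were ANKFY1 (0.969), EXOC3 (0.966) and IL1B (0.966). For TNFAIP3 they were LACTB (0.966), MCTP1 (0.965) and SLC2A3 (0.948), for BCL3 ZNF230 (0.988), ZNF117 (0.979) and DUSP18 (0.973). For RELA they were SHB (0.977), VPS37C (0.976) and A1BG-AS1 (0.974), and for NFKB1 RAP2C (0.974), MLLT6 (0.970) and TICAM2 (0.969). The loosest pair within the family was TNFAIP3 and BCL3 (r = 0.396).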

How the data were processed

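NB4 libraries of stranded total RNA were sequenced as paired ends, per the labels' protocols. The deposited values are raw counts. The authors ran featureCounts 1.5.1 by strand, with a fragment counted in each gene it overlaps, on a merged Ensembl and FANTOM CAT annotation of GRCh38 (genome of Ensembl release 90), per the file headers. Gene lengths are those of the deposited count table, per the file headers. The submitters' processing notes list Trimmomatic 0.36, STAR 2.5.2b and Subread 1.5.1. Because overlapping genes share fragments, REL and the transcript at its 3′ end are uncertain. Symbols came from a reference table of gene identifiers and names, with 56948 of 58970 Ensembl identifiers matched.

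The test was that of edgeR 4.0.16 (R 4.3.3): filterByExpr (22971 genes), TMM factors from 0.827 to 1.108, and 1 quasi-likelihood fit with a mean per group over all 33 libraries. Contrasts were ATRA against time-matched DMSO, DMSO against untreated cells, successive times, and differences in ATRA effect from one time to the next, 20 in all. Benjamini-Hochberg adjustment was made per comparison (threshold 0.05). Each SE was derived from its F statistic, and CPM from library sizes times TMM factors. The fit was tested on simulated data. Ratios used an exact permutation test in scipy. Alternatives were DESeq2 1.42.0, limma-voom 3.58.1, other size factors, no filter, fewer libraries or groups, and each library left out. All 10 genes are described, and of each other list up to 4 of smallest p at 1 time. The genes and lists were chosen with earlier results of these data known. The lengths from GENCODE 29 were added after seeing the data. Promoter sequences are RefSeq's (GRCh38.p14). The exact decamers searched were the consensus matches nearest the start in the NFKB1 and NFKB2 windows.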

Additional observations from a re-analysis of the deposited data

Results flagged for a closer look

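These results were picked out because the effect of ATRA against DMSO differed between successive times, by a test of the difference itself in the edgeR fit (adjusted p under 0.05). All values are log2 differences between 2 such effects. From 4 to 12 h the effect fell for RELB (-0.785), NFKBIA (-0.462) and NFKB2 (-0.41) and rose for NFKB1 (0.264), where 14% of all genes passed. RELB and NFKBIA kept this call with each of the 12 libraries left out in turn. NFKB1 lost it without 10 of the 12, with values from 0.187 to 0.26. NFKB2 lost it without any 1 of 4 libraries, with values from -0.406 to -0.315. These were DMSO 2 and ATRA 5 at 4 h, and DMSO 4 and ATRA 2 at 12 h. NFKB1 and NFKB2 also lost it with replicates 4 and 5 only (0.232 and -0.296) and with groups compared alone (0.269 and -0.407). Without the low-count filter NFKB1 lost it too (0.264).

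From 12 to 24 h the effect fell for BCL3 (-0.902), NFKB2 (-0.638) and TNFAIP3 (-0.518), where 6.9% of all genes passed. Without ATRA replicate 5 of 12 h TNFAIP3 lost this call (-0.454). BCL3 lost it with limma-voom (-0.909) and without any 1 of 6 libraries. These were DMSO replicate 2 and ATRA replicate 5 of 12 h, and DMSO replicates 4 and 5 and ATRA replicates 2 and 4 of 24 h. With replicates 4 and 5 only, the calls of TNFAIP3 (-0.447) and BCL3 (-0.928) were both lost. Between 24 and 72 h the effect rose for all 10 genes, where 45.9% of all genes passed: NFKBIZ (3.543), BCL3 (3.18), NFKBIE (2.182), NFKBIA (2.035), REL (1.237), NFKB2 (1.223), TNFAIP3 (1.214), NFKB1 (0.93), RELB (0.662) and RELA (0.556). For NFKB2, TNFAIP3 and RELB, DMSO cultures rose over the same interval, and for NFKBIE they fell.

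Between 72 and 120 h the effect rose further for NFKB2 (0.704), TNFAIP3 (0.702), REL (0.65), RELB (0.559), NFKB1 (0.493) and NFKBIA (0.472) and fell for BCL3 (-0.818) and NFKBIE (-0.761), where 39.3% of all genes passed. NFKBIZ and RELA did not pass.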

How the results depend on the processing

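In ATRA against DMSO, 34 of 36 calls on single genes kept direction and threshold in every other setting, and 33 of 36 with each library left out; the exceptions were NFKB2 and NFKBIA at 4 h, and NFKB2 at 4 h, NFKBIA at 12 h and TNFAIP3 at 72 h. Over all 20 comparisons 120 and 117 of 134 calls did. The number of genes called was within 1.5 times except for the change of the ATRA effect from 4 to 12 h, 4 genes, which was 2 with replicates 4 and 5 only and 2 with groups compared alone, and from 12 to 24 h, 3 genes, which was 1 with replicates 4 and 5 only. With a library left out these counts ran from 2 to 4 and from 1 to 3, the low ends when DMSO 2 or ATRA 5 at 4 h, or DMSO 4 or ATRA 2 at 12 h, was dropped, and for the second when ATRA 5 at 12 h was. Direction changed only in genes that did not pass: NFKBIE at 12 h (0.00) was -0.02 with DESeq2, RLE size factors or no filter, -0.007 without mitochondrial and small RNA genes and -0.031 with replicates 4 and 5 only, which also gave NFKB1 at 12 h -0.008 and NFKBIE at 24 h -0.049; RELA in DMSO at 120 h against untreated was 0.01 with groups compared alone and 0.015 with replicates 4 and 5 only. With a library left out, NFKBIE ran from -0.113 to 0.12 at 12 h and from -0.042 to 0.082 at 24 h, RELA at 4 h from -0.071 to 0.076, RELB at 72 h from -0.029 to 0.134 and, in DMSO at 120 h against untreated, REL from -0.047 to 0.102 and RELA from -0.055 to 0.035. The cause was not tested. A fit with the replicate number as a block called 8 members at 4 h (NFKBIE added, -0.236) and the same numbers at the later times, and changed no other count by over 1.5 times. Whether the numbers pair the samples is not settled by these values. Same-numbered ATRA and DMSO libraries deviated together with r from -0.019 to 0.2, over 0.1 in 4 of 15 pairs. Of the 15 ATRA libraries, 10 correlated best with the DMSO library of their own number. Over all genes, replicates 4 and 5 only gave fewer calls in DMSO against untreated (4640 against 7208 at 4 h, 2806 against 5209 at 12 h, 2703 against 4390 at 24 h, 3043 against 5026 at 120 h), in ATRA at 24 against 12 h (2672 against 4514) and in the change of effect from 4 to 12 h (1624 against 3224) and 12 to 24 h (904 against 1584), with fewer samples; without DMSO replicate 5 of 120 h DMSO at 120 h against untreated gave 3217. DESeq2 put 44.8% of those calls higher against 56.2% in edgeR. Depth limits BCL3 most.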

Other observations

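Values follow for 3 genes whose exons lie opposite members, chosen after their values were seen. WAKMAR2, an antisense RNA opposite TNFAIP3, was at 1.17 CPM in ATRA and 2.15 CPM in DMSO at 4 h (log2 change -0.89), at 1.37 against 2.59 CPM at 24 h (-0.93) and at 7.05 against 4.07 CPM at 120 h (0.79), and its changes at 12 and 72 h (-0.15 and 0.04) did not pass the threshold. MANBA, opposite part of NFKB1, had log2 changes of -0.18, 0.35 and 0.52 at 4, 12 and 24 h, -0.38 at 72 h and 1.66 at 120 h. PSD, which lies opposite 69.3% of the NFKB2 exon length, had low levels. It was at 0.757 CPM in ATRA against 1.9 CPM in DMSO at 72 h (-1.32). At 120 h it was at 0.508 against 0.908 CPM (-0.84). NFKB2 was higher at both times.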
